A study of Mus musculus with 4 samples.

Results

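The genes described here are the 10 that carry peptides from the proteasome to the cell surface on major histocompatibility complex (MHC) class I molecules: the light chain B2m, the heavy chains H2-K1, H2-D1, H2-Q4 and H2-T23, the peptide transporter genes Tap1 and Tap2, the loading chaperone Tapbp and the immunoproteasome subunits Psmb8 and Psmb9. They were chosen by gene symbol through the mouse GRCm38 annotation, and all 10 were found among the 55487 genes of the deposited count table and passed the filter on low counts. Bulk RNA-seq was made from skeletal stem cells of wild-type mice after ovariectomy (2 libraries) and after sham surgery (2 libraries), all given the time 8 weeks without saying whether this is an age or a time after surgery. The cells were sorted by flow cytometry from collagenase-digested metaphyses of long bones, with antibodies to the blood cell antigens CD45 and Ter119, to Tie2, and to the stem and progenitor antigens CD51, CD200, CD105, CD90 and 6C3. The labels give neither the gate, the mouse strain, nor whether the libraries of a group came from separate animals or pools, so p-values measure the spread between these libraries, which may be technical. The label was read against the 7 sort antigen genes in the table, of which 6 were tested, with a median log2 fold change of 0.57 and 4 above 0. Itgav (CD51) was at 69.0 and 72.0 CPM (counts scaled to a common library size) in ovariectomy and 70.4 and 67.3 CPM in sham libraries, Cd200 at 173 and 155 against 237 and 305 CPM (called lower, edgeR adjusted p = 0.0462), and the pan-leukocyte gene Ptprc (CD45) at 3.55 and 6.44 against 9.55 and 5.25 CPM. Eng (CD105) was at 75.2 and 83.1 CPM in ovariectomy and 21.6 and 52.1 CPM in sham libraries, Enpep (6C3) at 4.397 and 3.636 against 1.52 and 1.91 CPM, and neither passed (edgeR adjusted p = 0.150 and 0.220). Tek (Tie2) was at 7.53 and 9.76 CPM in ovariectomy and 0.223 and 5.52 CPM in sham libraries (edgeR adjusted p = 0.474). Thy1 (CD90) had 5 and 3 counts in ovariectomy and 4 and 3 counts in sham libraries and was not tested.

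Class I molecules are displayed by nearly all nucleated cells. Proteasomes cut cytosolic proteins into peptides, the TAP transporter moves these into the endoplasmic reticulum, and tapasin holds an empty heavy chain with its light chain beta-2-microglobulin next to the transporter until a peptide is bound. Cytotoxic T cells and natural killer cells inspect the finished complex, and interferons raise most genes of the route through factors that include IRF1 and NLRC5.

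The promoters of the heavy chain genes are shown first because H2-D1 was the member that passed the test, and H2-K1 and H2-Q4 held matches to some of the same motifs. Of the 10 members, 9 had a promoter entry in RefSeq (GRCm38.p6), and Tap2 had none. In the 250 bases before the start, H2-D1, H2-K1 and H2-Q4 each held a match to the NF-kB motif GGGNNTTCC followed by a match to the IRF core AANNGAAA, read on both strands. RefSeq and the gene annotation place the starts of H2-D1, H2-T23, Tapbp, Psmb8 and Psmb9 differently. The stretches printed for H2-D1 and H2-T23 therefore lie before the RefSeq start but within the gene span given further on. For Tapbp, Psmb8 and Psmb9 all the bases searched lie within that span. In the lines below the capitals mark the NF-kB and IRF core matches.
H2-D1, chr17:35262923-35262951, plus strand: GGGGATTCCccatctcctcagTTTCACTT
H2-K1, chr17:34000430-34000458, minus strand: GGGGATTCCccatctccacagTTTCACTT
H2-Q4, chr17:35379444-35379471, plus strand: GGGATTTCCcatctccccagTTTCACTT
The H2-K1 and H2-D1 stretches are 29 bases long and differ at 1 position (A18T, H2-K1 to H2-D1, counted from 1 at the 5′ end). In H2-Q4 the matches are 11 bases apart, against 12 in the others. The non-classical heavy chain gene H2-T23 and the light chain gene B2m held the longer interferon-stimulated response element (ISRE) motif, GAAA followed after any 2 bases by GAAA. It contains the IRF core and is in capitals here.
H2-T23, chr17:36032807-36032834, minus strand: tcctactgcTTTCTCTTTCataaagaca
B2m, chr2:122147539-122147566, plus strand: taagaacatGAAACTGAAAatgggaaag

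The upstream 250 bases of H2-K1 and B2m are given whole, to show where these matches lie before the start of a heavy chain and of the light chain gene.
H2-K1, chr17:34000348-34000597, minus strand: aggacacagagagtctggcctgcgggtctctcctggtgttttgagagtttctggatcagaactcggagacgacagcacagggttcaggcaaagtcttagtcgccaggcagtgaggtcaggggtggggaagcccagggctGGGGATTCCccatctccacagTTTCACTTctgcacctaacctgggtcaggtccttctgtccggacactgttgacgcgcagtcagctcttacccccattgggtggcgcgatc
B2m, chr2:122147437-122147686, plus strand: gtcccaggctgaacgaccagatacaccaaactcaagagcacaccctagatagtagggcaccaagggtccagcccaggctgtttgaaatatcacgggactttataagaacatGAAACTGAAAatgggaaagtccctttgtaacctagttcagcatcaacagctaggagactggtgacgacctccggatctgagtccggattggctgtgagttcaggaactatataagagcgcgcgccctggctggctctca
The IRF core was found in 5 of the 9 member promoters (the 4 heavy chains and B2m), against 21.3% of 32851 mouse promoters of the same length. The ISRE motif was in 2 of 9 against 2.98%, and the NF-kB motif in 3 of 9 against 4.98%. TGACGC, the core of the class I element site alpha, was in 2 of 9 (H2-K1 and H2-D1) against 6.12%. CCAAT, the core of the Y box, was in 8 of 9 against 33.8%. The heavy chain genes are related in sequence and are not independent cases, and a match is a run of letters, not a bound site.

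The libraries held between 18291436 and 23721078 counts, and a single count was worth between 0.0423 and 0.0519 CPM after scaling of the libraries by TMM, a method that centres the bulk of genes. Of 17120 genes tested with edgeR's quasi-likelihood test, 510 were called higher and 206 lower after ovariectomy at a Benjamini-Hochberg adjusted p under 0.05. Higher genes made up 71.2% of these calls, against 82.2% when only library totals were used for scaling and 57.4% with an offset for GC content and exon length. All fold changes are ovariectomy over sham, and levels are TMM-scaled CPM unless another scale is named.

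The classical heavy chain gene H2-D1 rose after ovariectomy and was the 1 called member of the 10, while none was called lower. Over all genes tested, 2.98% were called higher, 1.2% lower and 4.18% in either direction. A further 4 members (B2m, H2-K1, H2-T23 and Psmb8) had an unadjusted p under 0.05 in the higher direction, making 5 of 10 with H2-D1, against 10.6% of all genes tested. In 8 of the 10 members both ovariectomy libraries lay above both sham libraries, against 25.5% of all genes, and in 0 of 10 below them, against 23.9%. The members' median log2 fold change was 0.54, against -0.02 over all genes tested. Together the members took 0.241% and 0.258% of the counts of the ovariectomy libraries and 0.147% and 0.171% of those of the sham libraries. In bulk samples, more cells of a type that expresses a gene and more of its RNA per cell cannot be told apart.

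H2-D1 (ENSMUSG00000073411, chromosome 17, 35262730 to 35267499, plus strand, GRCm38) encodes a classical heavy chain that presents peptides to cytotoxic T cells. It was at 1299 and 1381 CPM in ovariectomy libraries, against 699.7 and 881 CPM in sham libraries. The groups did not overlap, and the means of 1340 ± 57.7 and 790 ± 128 CPM (SD, n = 2 each) differed 1.70-fold (log2 fold change 0.76 ± 0.13 SE at an edgeR adjusted p = 0.0231). The call was lost when either ovariectomy library was left out, with a log2 fold change of 0.81 without ovariectomy 1 (edgeR adjusted p = 0.212) and 0.72 without ovariectomy 2 (0.284). In those fits edgeR called 0 genes of the whole table, with 1893 and 1686 genes at an unadjusted p under 0.05, and the single ovariectomy library was assumed to vary like the sham pair.

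H2-K1 (ENSMUSG00000061232, chromosome 17, 33996017 to 34000347, minus strand), the other classical heavy chain gene of this annotation, was at 315 and 311 CPM in ovariectomy and 206 and 258 CPM in sham libraries. The ovariectomy libraries were nearly equal and above both sham libraries, yet the difference of 1.35-fold did not pass (log2 fold change 0.43 ± 0.14 SE at an edgeR adjusted p = 0.146). B2m (ENSMUSG00000060802, chromosome 2, 122147686 to 122153083, plus strand), the light chain shared by all class I molecules, was at 396 and 374 CPM in ovariectomy and 233 and 322 CPM in sham libraries. It too was higher in both ovariectomy libraries and did not pass, at 1.39-fold (log2 fold change 0.47 ± 0.16 SE at an edgeR adjusted p = 0.174). Sham 1 was the lowest of the 4 libraries for H2-D1, H2-K1 and B2m. Leaving out a library moved H2-K1 between 0.28 and 0.60 (log2 fold change) and B2m between 0.26 and 0.73, lowest without sham 1 for both and with an adjusted p of up to 0.531 and 0.567. Without sham 2 the calls on H2-K1 and B2m were made (edgeR adjusted p = 0.0245 and 0.00948), and they were also made by the DESeq2 test (adjusted p = 0.0276 and 0.0279) and with no filter on low counts (edgeR adjusted p = 0.0431 and 0.0156).

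The non-classical heavy chains were far less abundant. H2-T23 (ENSMUSG00000067212, chromosome 17, 36029773 to 36032855, minus strand) encodes Qa-1, which shows signal peptides of other class I chains to natural killer cells. It was at 13.0 and 14.96 CPM in ovariectomy and 6.78 and 7.35 CPM in sham libraries, groups that did not overlap (1.98-fold, log2 fold change 0.98 ± 0.25 SE at an edgeR adjusted p = 0.0837). With no filter on low counts it was called (edgeR adjusted p = 0.0339). H2-Q4 (ENSMUSG00000035929, chromosome 17, 35379617 to 35385290, plus strand), a gene of the Q region, had 45 and 60 counts in ovariectomy and 40 and 34 counts in sham libraries. Its log2 fold change of 0.60 ± 0.57 SE was about the size of its error (edgeR adjusted p = 0.674). These genes resemble each other: of all runs of 50 bases in its longest coding transcript, 24.3% for H2-Q4, 28.8% for H2-T23, 14.3% for H2-D1 and 8.79% for H2-K1 also occur in another gene, and the annotation's reference mouse is C57BL/6J. Runs of 100 bases were shared for 2.66% of H2-Q4, 7.28% of H2-T23, 4.64% of H2-D1 and 0% of H2-K1. The read length, the handling of reads with several matches and the strain were not stated by the submitters, so how reads were split among these genes was not tested.

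**Figure D1:**
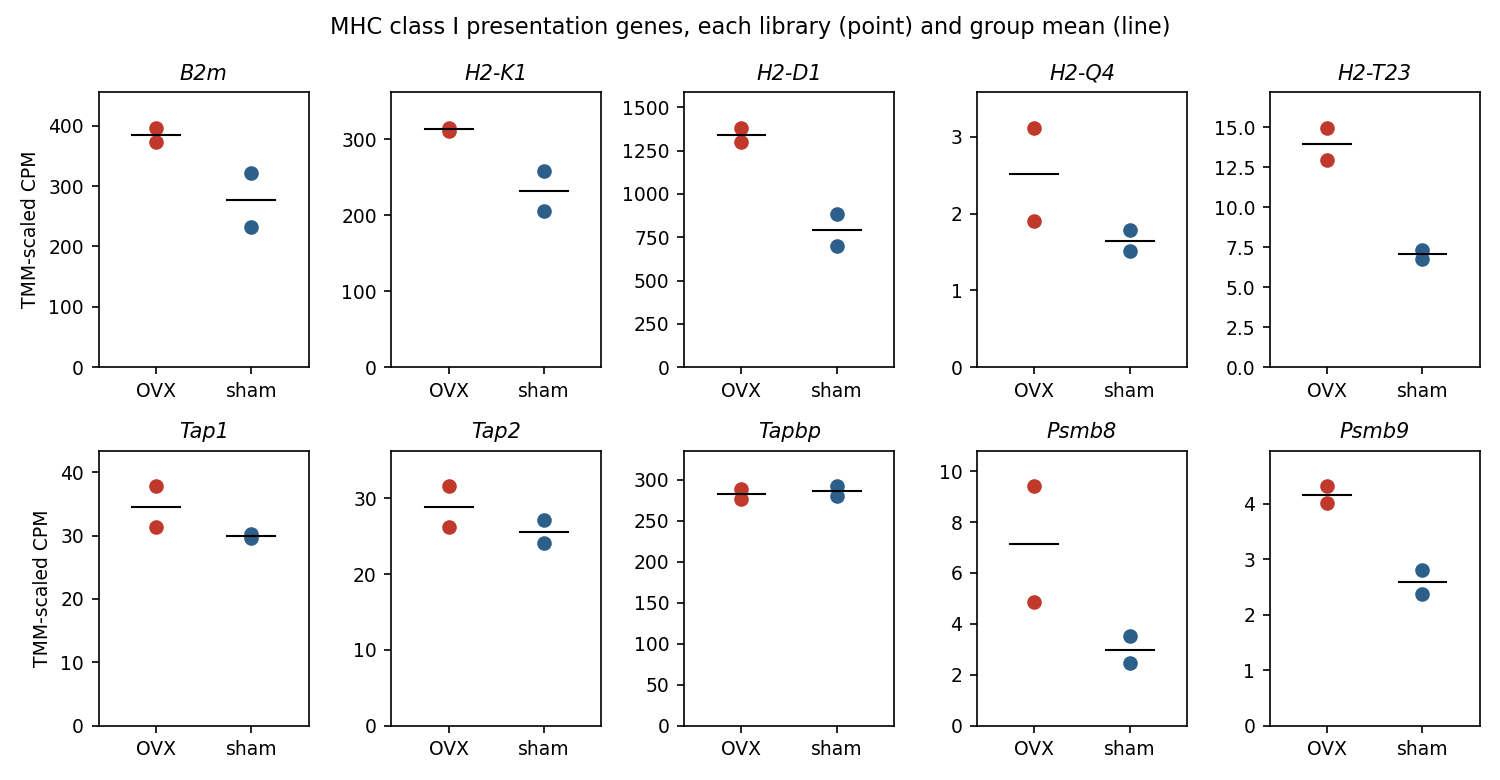
Levels of the 10 members in TMM-scaled CPM (y axis, from 0) in the ovariectomy (OVX, left, red) and sham (right, blue) libraries. Each point is a library and each line a group mean. Apart from Tap2 and Tapbp, each member lies higher in both ovariectomy libraries, and Tapbp lies at 276 and 289 CPM against 292 and 280.0 CPM.

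None of the 3 members that carry and load peptides passed the test. Tap1 (ENSMUSG00000037321, chromosome 17, 34187553 to 34197225, plus strand) and Tap2 (ENSMUSG00000024339, chromosome 17, 34203527 to 34216321, plus strand) encode the paired chains of the TAP transporter. Tap1 was at 31.3 and 37.8 CPM in ovariectomy and 29.7 and 30.3 CPM in sham libraries (log2 fold change 0.20 ± 0.17 SE at an edgeR adjusted p = 0.620). For Tap1 the ovariectomy libraries lay just above the sham pair. Tap2 was at 26.2 and 31.6 CPM in ovariectomy and 27.1 and 24.1 CPM in sham libraries, which overlapped (log2 fold change 0.17 ± 0.18 SE at an edgeR adjusted p = 0.717). Within a library Tap1 and Tap2 stayed close, with a ratio per exon length of 0.824 and 0.826 in ovariectomy and 0.755 and 0.868 in sham libraries.

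Tapbp (ENSMUSG00000024308, chromosome 17, 33915899 to 33929292, plus strand) encodes tapasin. It was at 276 and 289 CPM in ovariectomy and 292 and 280.0 CPM in sham libraries, which overlapped (log2 fold change -0.02 ± 0.11 SE at an edgeR adjusted p = 0.965). Its sign turned when only library totals were used (0.09), without ovariectomy 1 (0.02) and without sham 1 (0.01). Tapbp shares 29.0% of its exon length with other genes (among them Zbtb22), and Tap2 shares 18.5%, H2-Q4 19.1% and Psmb8 14.7% with genes on the opposite strand. No strand setting is stated, so reads in these stretches cannot be assigned to a gene with certainty.

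Psmb8 and Psmb9 encode catalytic subunits that replace Psmb5 and Psmb6 in the immunoproteasome, a form that cuts more peptides suited to class I grooves. Psmb8 (ENSMUSG00000024338, chromosome 17, 34197721 to 34201454, plus strand) had 115 and 181 counts in ovariectomy and 55 and 79 counts in sham libraries, or 4.86 and 9.40 CPM against 2.45 and 3.52 CPM. Its log2 fold change was 1.25 ± 0.44 SE with a wide spread in the ovariectomy pair (0.71 without ovariectomy 2, 1.66 without ovariectomy 1), and it did not pass (edgeR adjusted p = 0.187). Psmb9 (ENSMUSG00000096727, chromosome 17, 34181987 to 34187764, minus strand) had 95 and 83 counts in ovariectomy and 53 and 63 counts in sham libraries, or 4.02 and 4.31 CPM against 2.36 and 2.80 CPM (log2 fold change 0.69 ± 0.42 SE at an edgeR adjusted p = 0.458). Both had levels above the sham pair in both ovariectomy libraries. Psmb9 and Tap1 start head to head on opposite strands and share 212 bases of annotated exon.

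None of the 3 constitutive counterparts passed the edgeR test or had an unadjusted p under 0.05. Psmb5 was at 28.6 and 28.5 CPM in ovariectomy and 27.7 and 27.8 CPM in sham libraries (log2 fold change 0.04 ± 0.16 SE), and Psmb7 at 11.8 and 11.8 against 10.5 and 13.8 CPM (-0.04 ± 0.25 SE), with edgeR adjusted p of 0.945 and 0.969. Both signs depended on the scaling. Per exon length, Psmb8 stood at 0.0452 and 0.0877 of Psmb5 in ovariectomy and 0.0235 and 0.0336 in sham libraries, and Psmb9 at 0.0157 and 0.0188 of Psmb6 against 0.00964 and 0.0116. The mean log2 ratio was 1.16 higher in ovariectomy libraries for Psmb8 to Psmb5 and 0.70 higher for Psmb9 to Psmb6, with an exact two-sided permutation p = 0.33 for each, the smallest that 2 against 2 libraries allow. Psmb10, the third inducible subunit, was at 1.78 and 1.93 times Psmb7 in ovariectomy and 1.93 and 1.13 times in sham libraries, which overlapped (exact permutation p = 1).

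**Figure D2:**
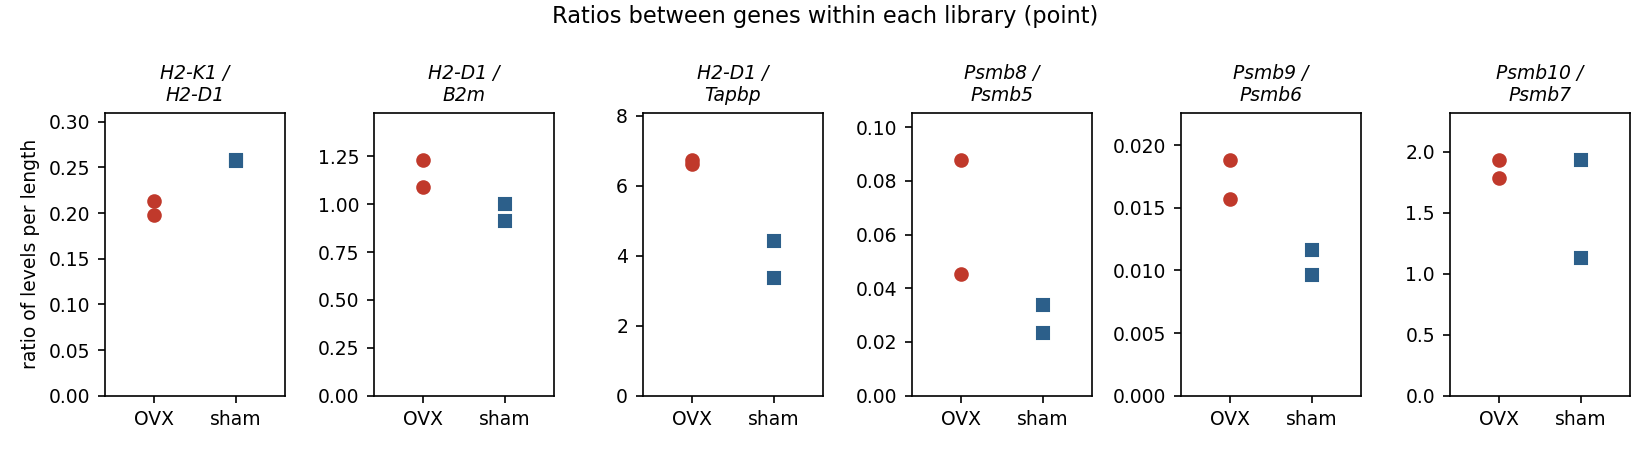
Ratios of levels per exon length between pairs of genes (y axis, from 0) within each library, ovariectomy (OVX, red circles) left of sham (blue squares). H2-K1 to H2-D1 is lower in both ovariectomy libraries (0.213 and 0.198 against 0.258 and 0.257), Psmb8 to Psmb5 and Psmb9 to Psmb6 are higher, and Psmb10 to Psmb7 overlaps.

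Ratios within a library do not depend on the scaling, and 2 against 2 libraries are too few for a test of them to pass. H2-K1 was at 0.213 and 0.198 of H2-D1 per exon length in ovariectomy and 0.258 and 0.257 in sham libraries. H2-D1 was at 1.09 and 1.23 times B2m in ovariectomy and 1 and 0.913 times in sham libraries, and at 6.62 and 6.73 times Tapbp against 3.37 and 4.43 times. In each of these 3 ratios, all of which contain H2-D1, the groups did not overlap (exact two-sided permutation p = 0.33 each, the smallest possible here). H2-K1 to B2m overlapped, at 0.233 and 0.244 in ovariectomy and 0.259 and 0.235 in sham libraries. H2-D1 made up 54.9% and 56.2% of the members' counts in ovariectomy and 46.6% and 48.7% in sham libraries, while the share of Tapbp was 11.7% and 11.8% against 19.5% and 15.5%.

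On a scale of CPM per kilobase of exon, the members' means over the 4 libraries ran from 413 for H2-D1 to 0.801 for H2-Q4. The length is that of all annotated exons merged, 2579 bases for H2-D1, 2938 for H2-K1 and 860 for B2m. The longest coding transcripts have 2102, 1619 and 860 bases. Orders and ratios between genes therefore depend on the length used. H2-D1 averaged 520 ± 22.4 in ovariectomy and 306 ± 49.7 in sham libraries, and B2m 448 ± 18.8 against 322 ± 73.3 (SD, n = 2 each). H2-D1 was above B2m in 3 of the 4 libraries, and their ranges over the libraries overlapped. H2-K1 averaged 106 ± 1 against 78.9 ± 12.6 and Tapbp 77.8 ± 2.41 against 78.8 ± 2.30, and this pair also changed order between libraries. Then followed, on the same scale, Tap2 at 7.64 ± 1 against 6.77 ± 0.567, Tap1 at 6.30 ± 0.836 against 5.47 ± 0.0793 and H2-T23 at 4.84 ± 0.484 against 2.44 ± 0.139. Psmb8 averaged 2.11 ± 0.949 against 0.883 ± 0.223, Psmb9 1.14 ± 0.0569 against 0.706 ± 0.0852 and H2-Q4 0.967 ± 0.331 against 0.635 ± 0.0736. Psmb9 lay above H2-Q4 in 2 of the 4 libraries, and the order of these last members is not fixed by the data. The classical chains H2-D1 and H2-K1 gave between 99% and 99.3% of the summed heavy chain level of the 4 members in every library.

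**Figure D3:**
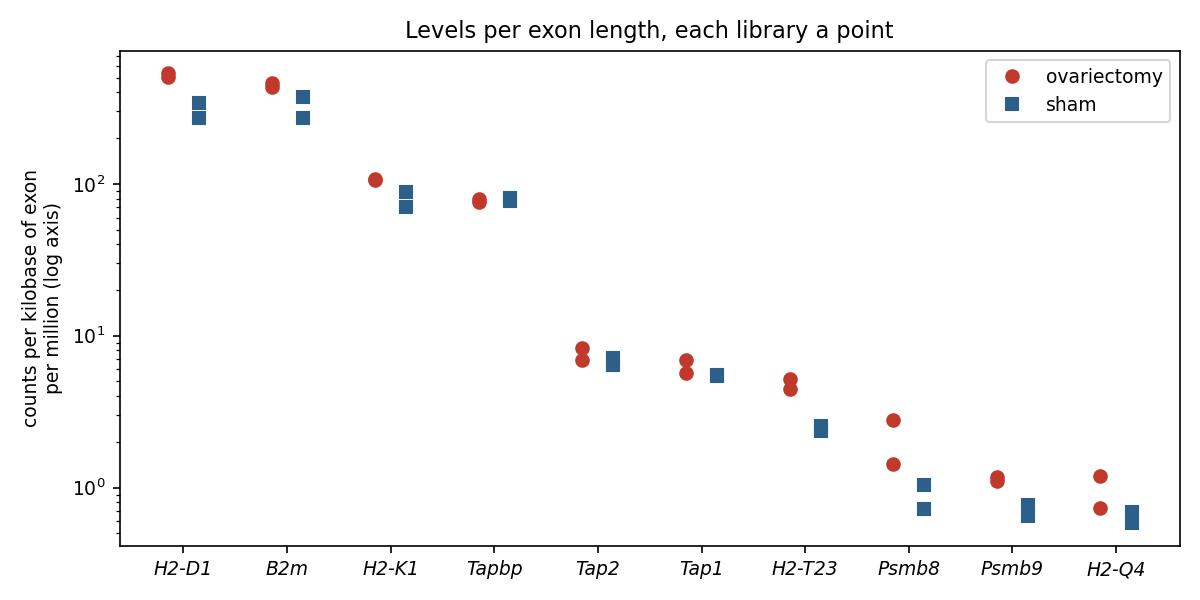
CPM per kilobase of exon (log y axis) of the 10 members, ordered by their mean over the 4 libraries, with ovariectomy libraries as red circles to the left of sham libraries as blue squares. H2-D1 and B2m lie between 270.0 and 535, H2-K1 and Tapbp between 70.0 and 107, and Psmb8, Psmb9 and H2-Q4 at or below 2.78.

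Of the 8 tested genes among 15 other class I heavy chains in the table, 0 passed with edgeR, and no member of that list had an unadjusted p under 0.05. Their median log2 fold change was 0.42, with 7 of 8 above 0 (6 of 8 under upper-quartile scaling, the GC and length offset or without ovariectomy 2, where the median was 0.27, and 5 of 8 without sham 2). H2-T22 was at 14.8 and 14.2 CPM in ovariectomy and 8.39 and 11.9 CPM in sham libraries (log2 fold change 0.52 ± 0.26 SE at an edgeR adjusted p = 0.361), and H2-Q7 at 16.5 and 14.96 against 9.10 and 13.7 CPM (0.46 ± 0.27 SE, 0.433). Both share many sequence runs with other class I genes, as 44.7% of the 50-base runs of H2-T22 and 34.9% of those of H2-Q7 occur elsewhere. Without sham 2, 1 gene of this list was called higher.

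Of 13 genes for peptide loading and trimming, 0 were called with edgeR and 3 had a log2 fold change above 0, with a median of -0.10. With library totals alone 7 were above 0 and the median was 0.0069, with the GC and length offset 1 was above 0 and the median was -0.19, and without ovariectomy 1 the median was -0.18 and without ovariectomy 2 -0.07. Pdia3 (ERp57), the thiol oxidoreductase of the loading complex, was at 593 and 546 CPM in ovariectomy and 635 and 667 CPM in sham libraries (log2 fold change -0.19 ± 0.11 SE at an edgeR adjusted p = 0.409). Uggt1, which checks the folding of glycoproteins such as the heavy chains, was at 57.6 and 53.2 against 72.6 and 62.5 CPM (-0.28 ± 0.14 SE, 0.362). Neither passed, although both lay lower in both ovariectomy libraries. None of the 13 had an unadjusted p under 0.05.

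Among Psmb10, Pomp and the activator genes Psme1 and Psme2, 0 of 4 were called with edgeR, and the median log2 fold change was 0.34. Psme1, a subunit of the PA28 activator that interferon gamma induces, was at 20.1 and 18.1 CPM in ovariectomy and 10.8 and 12.7 CPM in sham libraries (log2 fold change 0.70 ± 0.22 SE at an edgeR adjusted p = 0.141, unadjusted 0.0146). Psme2, its partner, was at 32.4 and 29.6 against 23.8 and 23.6 CPM (0.39 ± 0.17 SE at an edgeR adjusted p = 0.277). In both genes the groups did not overlap. Per exon length, Psme1 was at 1 and 1.17 times the related activator gene Psme3 in ovariectomy libraries. The ratio was 1.09 and 1.35 in sham libraries, which overlapped (exact two-sided permutation p = 0.667). Of 31 genes of the core particle, which include the constitutive subunits above, and its 19S cap, 1 was called higher and 0 lower. Over all genes tested, 2.98% were called higher and 1.2% lower. Of the 31, 29 had a log2 fold change above 0 (between 26 and 31 over the scalings). Their median was 0.19 (0.11 with the GC and length offset), against -0.02 over all genes tested (-0.11 with the offset). The called gene was Psmd8, a subunit of the 19S lid, at 142 and 132 CPM in ovariectomy and 67.9 and 80.2 CPM in sham libraries (1.85-fold, log2 fold change 0.88 ± 0.14 SE at an edgeR adjusted p = 0.0159, lost without either ovariectomy library at 0.220 and 0.198).

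**Figure D4:**
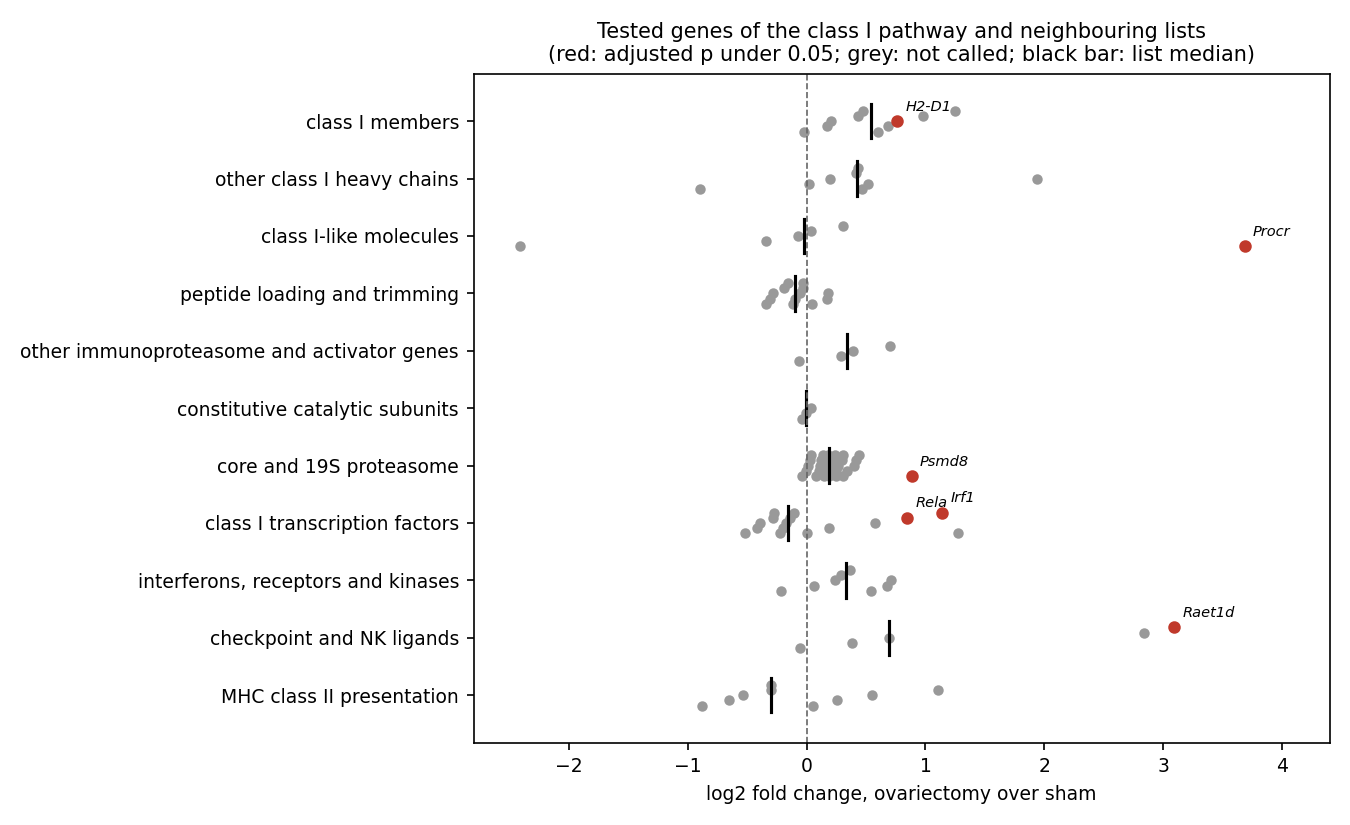
Log2 fold change of ovariectomy over sham (x axis) for every tested gene of the members and of 10 further lists (rows). Red points passed the edgeR adjusted p of 0.05 and carry their symbol, grey points did not, and black bars are list medians. The members' median is 0.54 and that of peptide loading and trimming -0.10.

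Of 16 transcription factors of class I genes, 2 were called higher and 0 lower, against 2.98% and 1.2% over all genes tested. The median log2 fold change was -0.16, with 6 above 0 (5 under upper-quartile scaling, DESeq2 or the GC and length offset). The median was -0.02 with 8 above 0 without ovariectomy 1, -0.29 with 4 above 0 without ovariectomy 2, -0.05 with library totals alone and -0.28 with the offset. Irf1, the interferon regulatory factor that binds ISRE elements, was at 555 and 551 CPM in ovariectomy and 259 and 242 CPM in sham libraries (log2 fold change 1.14 ± 0.11 SE at an edgeR adjusted p = 0.00417). Rela, the transactivating subunit of NF-kB, was at 276 and 284 CPM in ovariectomy and 146 and 165 CPM in sham libraries (1.80-fold, log2 fold change 0.85 ± 0.12 SE at an edgeR adjusted p = 0.0114). Both calls were lost without ovariectomy 1 (edgeR adjusted p = 0.104 and 0.163) and without ovariectomy 2 (0.127 and 0.197), and their signs were kept.

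Nlrc5, the dedicated transactivator of class I genes, had a negative log2 fold change and did not pass. It had 258 and 240 counts in ovariectomy and 337 and 364 counts in sham libraries, or 10.9 and 12.5 CPM against 15.03 and 16.2 CPM. The ovariectomy libraries lay below both sham libraries (log2 fold change -0.42 ± 0.22 SE at an edgeR adjusted p = 0.391). Of the interferon genes themselves, Ifng had 0 counts in all 4 libraries and Ifnb1 had 0 and 3 counts in ovariectomy and 0 and 0 counts in sham libraries.

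Of the 8 tested genes among interferons, their receptors, the receptors' kinases and the feedback inhibitor Socs1, 0 were called with edgeR. In the higher direction 4 had an unadjusted p under 0.05, against 10.6% of all genes tested. Of the 8, 7 had a log2 fold change above 0 (6 with the GC and length offset), and the median was 0.33. Ifnar2, a chain of the type I interferon receptor, was at 46.9 and 51.4 CPM in ovariectomy and 33.5 and 34.1 CPM in sham libraries (log2 fold change 0.54 ± 0.15 SE at an edgeR adjusted p = 0.0993, unadjusted 0.00735). Tyk2, the kinase bound to the type I receptor, was at 22.03 and 26.7 against 14.9 and 14.8 CPM (0.71 ± 0.20 SE at an edgeR adjusted p = 0.111, unadjusted 0.00908). Both were higher in both ovariectomy libraries and neither passed.

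Of 6 tested class I-like molecules, 1 was called higher and 0 lower, against 2.98% and 1.2% over all genes tested. Their median was -0.02 (between -0.09 and 0.09 over the alternatives). The called gene was Procr, the endothelial protein C receptor, whose fold resembles that of class I chains although it binds protein C rather than peptides. It was at 117 and 104 CPM in ovariectomy and 7.14 and 10.02 CPM in sham libraries (log2 fold change 3.68 ± 0.20 SE at an edgeR adjusted p = 0.000585). That call was lost without ovariectomy 1 or 2 (edgeR adjusted p = 0.0635 and 0.0582). Among 5 tested checkpoint and natural killer cell ligands 1 was called higher and 0 lower, against 2.98% and 1.2% over all genes tested. Their median was 0.69 (2.59 without sham 1, 1.03 without sham 2, 1.14 without ovariectomy 1, 0.44 without ovariectomy 2 and 1.78 with no filter). Raet1d, a class I-like ligand of the activating receptor NKG2D, had 92 and 95 counts in ovariectomy and 15 and 8 counts in sham libraries (log2 fold change 3.09 ± 0.59 SE at an edgeR adjusted p = 0.0343). It was not called with limma-voom (adjusted p = 0.0712) or without ovariectomy 1 or 2 (edgeR adjusted p = 0.284 and 0.395), and it shares 25.2% of its exon length with Raet1e.

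None of the MHC class II genes, which professional antigen-presenting cells use, passed the test. Of 9 tested, 0 were called with edgeR. At an unadjusted p under 0.05 there was 1, against 3154 of all 17120 genes tested, in either direction. A log2 fold change above 0 was seen in 4, and the median was -0.30. The median turned to 0.11 with 6 of 9 above 0 without sham 1, and was -0.03 with limma-voom, -0.10 with the replicate block, -0.11 with no filter and -0.19 with library totals alone. The summed level of the list was 78.2 and 75.1 CPM in ovariectomy and 110 and 98.7 CPM in sham libraries. Much of it came from H2-DMb1, a chain of the class II peptide editor, at 47.7 and 40.1 CPM in ovariectomy and 70.7 and 67.3 CPM in sham libraries (log2 fold change -0.65 ± 0.15 SE at an edgeR adjusted p = 0.0601, unadjusted 0.00284). H2-DMb1 was called lower under 8 of the 13 alternatives, with adjusted p between 0.00643 and 0.0455. H2-Aa, a peptide-binding class II chain, had 25 and 28 counts in ovariectomy and 14 and 12 counts in sham libraries (1.11 ± 0.85 SE at an edgeR adjusted p = 0.578).

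Markers of other cells that carry class I were read in the same libraries. For the counts of calls below, 2.98% of all genes tested were called higher and 1.2% lower. The 8 leukocyte genes summed to 35.8 and 53.4 CPM in ovariectomy and 37.0 and 26.5 CPM in sham libraries, which overlapped, with 0 of 8 called. B cell genes summed to 9.51 and 16.5 CPM in ovariectomy and 2.81 and 2.72 CPM in sham libraries. Monocyte and macrophage genes summed to 62.7 and 102 against 42.4 and 46.6 CPM, with 0 of 9 called. Much of this sum was Lyz2, at 42.4 and 78.6 against 31.4 and 24.3 CPM, and 7 of the 9 had a log2 fold change above 0. Granulocyte genes summed to 178 and 284 against 137 and 86.7 CPM, with 2 of 7 called higher (Mpo and Elane, granule enzymes of immature myeloid cells). Mpo was at 58.3 and 110 CPM in ovariectomy and 3.39 and 0.49 CPM in sham libraries. In 4 of the 7 granulocyte genes the groups overlapped. T and natural killer cell genes were near the limit, at 0.381 and 1.14 against 0.758 and 3.43 CPM, with Cd8a and Gzma at 0 counts in all 4 libraries. Dendritic cell genes summed to 33.8 and 37.1 against 32.1 and 23.7 CPM (0 of 3 called). Nearly all of this sum was Zbtb46, at 33.2 and 36.0 CPM in ovariectomy and 30.3 and 20.6 CPM in sham libraries. The other genes of that list were near the limit, and 2 of the 3 tested had a log2 fold change below 0 (list median -0.82). Endothelial genes summed to 52.5 and 84.0 against 18.2 and 60.2 CPM (0 of 10 called).

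Erythroid genes summed to 118 and 159 CPM in ovariectomy and 37.9 and 21.9 CPM in sham libraries (3 of 6 called higher, Car1, Klf1 and Rhag). Pericyte and smooth muscle genes summed to 570.0 and 615 against 305 and 336 CPM (2 of 7 called higher, Acta2 and Rgs5). This difference came from Rgs5, at 295 and 361 CPM in ovariectomy and 5.66 and 46.4 CPM in sham libraries. Cspg4, the largest part of the sham sums, lay the other way at 214 and 222 against 284 and 266 CPM (not called). Of the 7 genes, 5 had a log2 fold change above 0 and 2 below. Megakaryocyte genes summed to 7.02 and 7.48 against 2.85 and 12.2 CPM (0 of 3 called). Most of the ovariectomy sums was Itga2b, at 6.34 and 6.60 CPM against 1.07 and 6.055 CPM in sham libraries. The other 2 tested genes, Pf4 and Ppbp, lay below both sham libraries (list median log2 fold change -2.38). Chondrocyte genes summed to 60400 and 54900 CPM in ovariectomy and 103000 and 95600 CPM in sham libraries (6 of 7 called lower), and osteoblast genes to 71100 and 65100 against 77900 and 107000 CPM (3 of 6 called lower, Alpl, Ibsp and Sp7). Beside these counts, 2.98% of all genes tested were called higher and 1.2% lower. The part of these cell types in the class I differences was not tested.

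In the 4 libraries, the 8 members with a mean of at least 5 CPM had a mean centred log2 level of 0.15 and 0.37 in ovariectomy 1 and 2 and of -0.36 and -0.17 in sham 1 and 2. Among 5538 genes outside all lists with a mean of at least 20 CPM, those nearest to this profile by Euclidean distance over the 4 libraries included Per1 (distance 0.0533), Myh9 (0.0544), Dag1 (0.0608) and Sidt2 (0.0686). Per1, for example, was at 157 and 191 CPM in ovariectomy and 114 and 130.4 CPM in sham libraries. Likeness over 4 libraries of 2 groups is shared by many genes and is given as a description only. None of these 4 passed the test (edgeR adjusted p between 0.061 and 0.111).

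Along the chromosome, 9 of the 10 members lie on chromosome 17 between 33915899 and 36032855, a span of 2.12 megabases, and B2m lies on chromosome 2. Psmb9, Tap1, Psmb8 and Tap2 stand side by side there, with 495 bases between Tap1 and Psmb8 and 2072 between Psmb8 and Tap2. Within that block the log2 fold changes were 0.69 for Psmb9, 0.20 for Tap1, 1.25 for Psmb8 and 0.17 for Tap2. None of these 4 passed, the errors of Psmb8 and Psmb9 were 0.44 and 0.42, and the differences between the neighbours were not tested.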

How the data were processed

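The authors deposited 1 table of raw read counts per Ensembl gene for 4 libraries. Per the submitters' processing notes, Trim Galore 0.6.6 and featureCounts 2.0.1 were used on GRCm38 (mm10). The aligner, annotation release and strand setting were not stated. GENCODE M21 (GRCm38) named 55227 of 55487 IDs and gave exon lengths. Genes were filtered with filterByExpr, scaled by TMM and compared with edgeR 4.0.16 (quasi-likelihood F, group as the only term, R 4.3.3), with p-values adjusted over 17120 genes. On simulated counts this procedure called 30% of the genes changed by a log2 fold change of 1 and 58.7% of those changed by 2. A gene that did not pass may therefore still have changed. The SE is the log2 fold change divided by the square root of F. Alternatives were other scalings and filters, DESeq2 1.42.0, limma-voom 3.58.1, a GC and length offset, a replicate block and leaving out each library. The members and lists were chosen with earlier results of these data known. Outside the members, up to 4 called genes of a list by smallest p were named, or 2 genes where none was called, plus Irf1, Nlrc5, Ptprc and the nearest profiles. A few genes that this rule names are not reported here. Psmb6, Psmb10, Psme3, Itgav, Cd200, Ifng, Ifnb1 and the other marker genes were named after their values were seen. Protein sequences were not analysed here.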

Additional observations from a re-analysis of the deposited data

How the results depend on the processing

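The median log2 fold change of the members stayed between 0.42 and 0.67 under all 13 alternatives, and H2-D1 kept its call in all 9 that used the 4 libraries and in both that left out a sham library. The number of members called higher was 4 with no filter, 3 with DESeq2 and between 0 and 3 when a library was left out. Over all genes, calls were 1112 higher and 544 lower with no filter, and 930 and 486 with DESeq2. Lower calls were 406 at a mean of 5 CPM, 313 with limma-voom and 351 with the GC and length offset, and leaving out a library gave 0 to 1141 higher and 0 to 470 lower. With the replicate block there were 329 lower and 745 higher calls, the members' median was 0.53, and H2-D1 stayed called. The labels do not say whether equal replicate numbers stand for a shared batch. Deviations of ovariectomy 1 and sham 1 correlated at 0.00429 over all genes tested. This cannot decide the question, as a batch that acts on part of the genes could leave the correlation small. Class II genes called lower were 1 with upper-quartile scaling, no filter, 5 CPM, DESeq2, limma-voom, the offset and the block, and 0 to 1 without a library. Genes of the list of interferons, receptors, kinases and Socs1 called higher were 2 with no filter, 1 at 5 CPM, with DESeq2 and with the block, and 0 to 1 without a library. Checkpoint ligands called were 0 at 5 CPM and with limma-voom, and 0 to 1 without a library; other heavy chains were 1 with no filter, and 0 to 1 without a library. Without a library, transcription factors called were 0 to 3, and class I-like and core proteasome genes 0 to 1 each. The Psmb10 to Psmb7 log2 difference was -0.060 to 0.71 without a library, the lowest without sham 2. Signs turned for Tapbp (0.088 with library totals, 0.019 without ovariectomy 1, 0.012 without sham 1, and -0.048 to 0.019 without a library), Psmb7 (0.072 with library totals, 0.17 without sham 2, and -0.22 to 0.17 without a library) and Psmb5 (-0.0019 with upper-quartile scaling). Library totals alone shifted the median of all genes by 0.11. The cause of these changes was not tested. H2-Q4 had 34 to 60 counts per library, the fewest of the members.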
